A study of Mus musculus with 2 samples.

Results

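Histones and chromatin modifiers were taken by gene name: every non-control probe whose name in the array files begins as a histone gene (Hist followed by a digit, H1f, H2af, H3f, Hils1), a histone deacetylase (Hdac), a demethylase (Kdm, Jmjd), an arginine methyltransferase (Prmt), a SWI/SNF-related remodeller (Smarc), a DNA methyltransferase (Dnmt), a bromodomain reader (Brd followed by a digit, Brdt), a lysine methyltransferase (Suv, Ezh) or a chromobox reader (Cbx followed by a digit). This gave 135 probes of 15208 and 92 genes of the 11110 on the array. Of these genes, 91 had a probe well above background on at least 1 array. Hist1h2ae, an H2A gene, had none, with a control signal of 1.67 and a busulphan signal of 5.38, and was not compared.

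RNA was extracted from Sertoli cells, somatic cells that support germ cells inside the seminiferous tubule, isolated from testes of male Swiss mice at an age of 3 months. Mice of the control group were given no drug, and those of the treated group had received busulphan at 25 mg/kg, an alkylating agent that depletes germ cells, 1 month earlier. In both groups the cells were what a fine strainer held back after enzymatic digestion, without culture, and the number of mice behind a preparation is not given in the labels. Each group was 1 preparation on 1 single-colour array, so no difference has a replicate check, no p-value is given, and the preparation cannot be told apart from the treatment.

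Histones package DNA into nucleosomes, and linker histones bind where DNA enters and leaves them. Most core histone genes sit in clusters, are transcribed as DNA replicates and give mRNAs that largely lack a poly(A) tail, whereas most variant genes lie alone and give polyadenylated mRNAs. In the testis, germ cells replace many histones by testis-specific forms during meiosis and exchange most of them for transition proteins and protamines in spermatids, while Sertoli cells of the adult keep an ordinary somatic chromatin and do not divide. The RNA here was primed with oligo dT for labelling, so mRNAs without a poly(A) tail are poorly represented.

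The labelled cell type was checked against marker genes. Of 20 Sertoli markers, 18 were at least 2-fold higher on the busulphan array and none was lower, and their summed signal went from 28267 in control to 194238 after busulphan. The lowest control signals among them were those of Amh, at 15.9, and Sox8, at 17.2. All 17 spermatid markers were at least 2-fold lower, their summed signal going from 819660 to 68463, and 11 of 15 spermatocyte markers were lower and none higher. Of 12 spermatogonial markers 3 were higher and 2 lower, of 16 macrophage markers 11 and 2, of 9 Leydig markers 3 and 1, of 8 peritubular myoid markers 3 and 1, of 11 endothelial markers 3 and 3, and of 5 erythroid markers 1 and 2. Levels of Sertoli, spermatid, spermatocyte and macrophage markers thus moved with the groups, whereas spermatogonial markers went both ways. What part the cell types had in the values of the chromatin genes was not tested. In such bulk RNA, fewer cells of a type and less RNA per cell cannot be told apart.

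Ratios are log2 of busulphan over control, after each array's signal was divided by its 75th percentile. Calls rest on size alone, at least 2-fold either way. Of the 91 chromatin genes compared, 25 were higher (27.5%), beside 31.2% of all 9414 genes, and 31 were lower (34.1%), beside 29.6% of all genes. Both shares lie near the background, and the median log2 ratio was -0.04, beside 0.06 over all genes. As a set, then, the counts are no result about these genes. Each role below holds 4 to 15 genes compared, and its counts stand beside the same shares of all genes. With scaling to spike-in controls 12 members were higher and 43 lower, while all genes shifted to 16.0% higher and 46.6% lower. The values spread widely within the set, from at least 61.5-fold lower for the H2A variant gene H2afb1 to 14.7-fold higher for the remodeller gene Smarca1. The error that the scanner software gives for a log2 ratio had a median of 0.20 over the members and reached 0.35 among those measured on both arrays; it covers spot noise only and not the spread between mice.

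**Figure D1:**
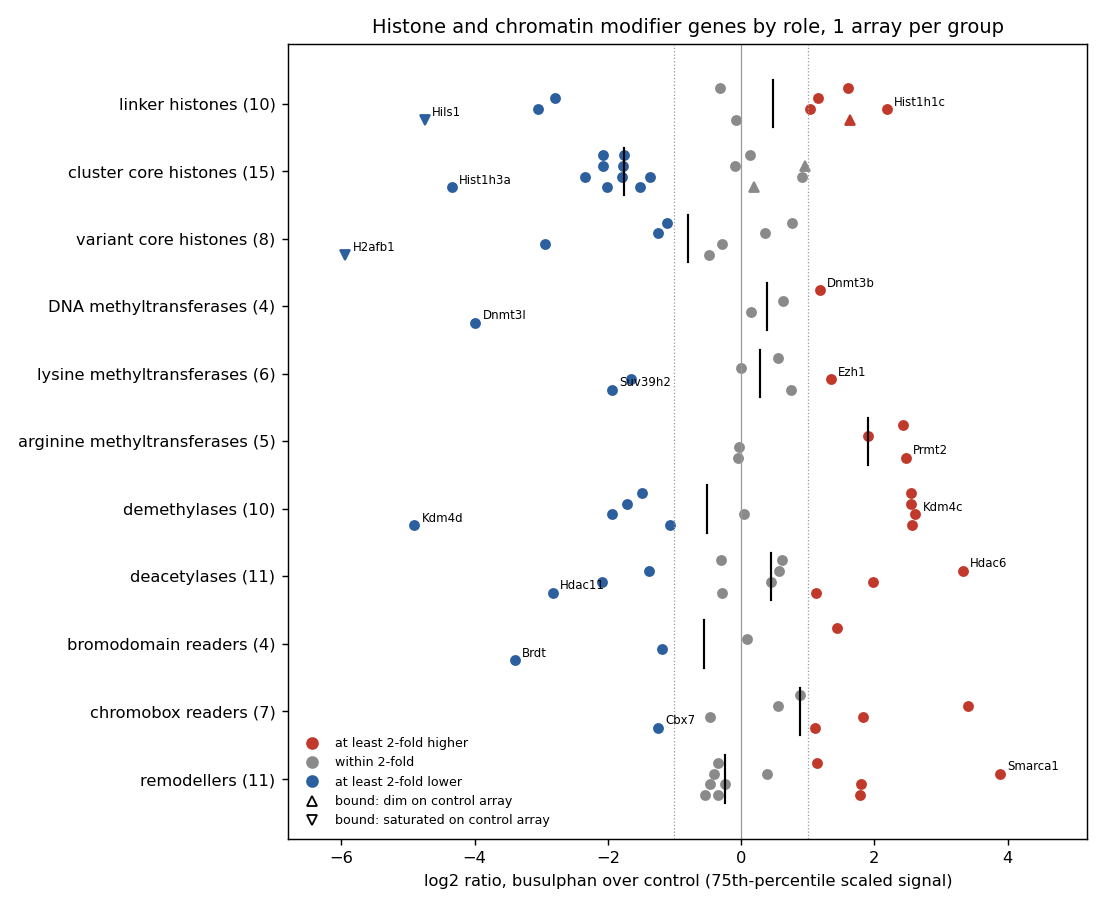
Log2 ratio of busulphan over control (x axis) for the 91 chromatin genes by role (y axis, number of genes in parentheses), 1 point per gene, with the median of each role as a vertical bar and dotted lines at 2-fold. Of the 15 cluster core histone genes, 10 lie beyond the lower dotted line and none beyond the upper, whereas the 10 linker histone genes include 5 higher and 3 lower, and triangles mark bounds; with scaling to spike-in controls the median of all genes is -0.82 in place of 0.06, and only Hist1h1c of the higher linker genes stays past 2-fold.

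Linker histone genes were found in both directions. The 3 that were lower were Hils1, a linker histone-like protein of spermatids, Hist1h1t (now H1f6), the testis-specific H1 of meiotic germ cells, and H1fx (now H1f10), a linker variant outside the clusters. The 5 that were higher were the somatic cluster genes Hist1h1c, Hist1h1b, Hist1h1e and Hist1h1d (now H1f2, H1f5, H1f4 and H1f3) and the oocyte-type gene H1foo (now H1f8). Promoters of the genes at both ends of this range are printed here because the linker genes of the cluster moved in opposite directions. Each is the RefSeq sequence of the 300 bases around the annotated start, mostly before it, on GRCm38.p6, 5′ to 3′, with capitals for the letters AAACAC (the core of the H1 box known from H1 genes) and CCAAT, each searched on both strands, where CCAAT on the other strand reads ATTGG.
Hist1h1t (H1f6) promoter, GRCm38.p6 chr13:23695561-23695860, plus strand: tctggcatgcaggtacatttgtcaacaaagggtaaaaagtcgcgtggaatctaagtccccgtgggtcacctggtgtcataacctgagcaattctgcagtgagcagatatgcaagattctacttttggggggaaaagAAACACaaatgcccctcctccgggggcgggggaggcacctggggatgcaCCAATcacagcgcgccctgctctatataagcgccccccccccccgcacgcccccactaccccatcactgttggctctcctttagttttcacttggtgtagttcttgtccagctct
Hils1 promoter, GRCm38.p6 chr11:94967343-94967642, plus strand: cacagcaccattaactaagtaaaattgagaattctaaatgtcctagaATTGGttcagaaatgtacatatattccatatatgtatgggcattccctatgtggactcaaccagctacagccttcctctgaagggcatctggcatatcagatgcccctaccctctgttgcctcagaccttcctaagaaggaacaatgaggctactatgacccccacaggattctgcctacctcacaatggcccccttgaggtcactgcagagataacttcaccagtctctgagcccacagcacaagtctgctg
Hist1h1c (H1f2) promoter, GRCm38.p6 chr13:23738557-23738856, plus strand: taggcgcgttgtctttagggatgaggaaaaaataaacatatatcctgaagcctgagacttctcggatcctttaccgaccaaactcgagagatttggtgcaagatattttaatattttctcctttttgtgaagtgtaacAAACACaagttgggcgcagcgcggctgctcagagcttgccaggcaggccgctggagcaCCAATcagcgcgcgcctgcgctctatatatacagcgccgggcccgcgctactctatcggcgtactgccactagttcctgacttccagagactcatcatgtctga
Hist1h1e (H1f4) promoter, GRCm38.p6 chr13:23622509-23622808, minus strand: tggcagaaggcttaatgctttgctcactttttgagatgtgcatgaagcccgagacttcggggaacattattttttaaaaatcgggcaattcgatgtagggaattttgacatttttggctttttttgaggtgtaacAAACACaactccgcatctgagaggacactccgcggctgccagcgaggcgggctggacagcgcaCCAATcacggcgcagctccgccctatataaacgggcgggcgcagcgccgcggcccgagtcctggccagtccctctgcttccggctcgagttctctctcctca
Both AAACAC and CCAAT were found in all 6 linker genes of the cluster, Hist1h1a to Hist1h1e and Hist1h1t, whether the gene was higher, lower or within 2-fold. Counted from the start, AAACAC began at -114 in Hist1h1t, -112 in Hist1h1c and -115 in Hist1h1e, and CCAAT at -65, -54 and -52. The Hils1 and H1foo windows held CCAAT on the other strand only and no AAACAC, and those of H1f0 and H1fx held neither. The exact letters TATAAA were present in the windows of Hist1h1a, Hist1h1b, Hist1h1d and Hist1h1e, and not in those of Hist1h1c, Hist1h1t or Hils1. The printed windows of Hist1h1t and Hist1h1c hold the similar letters TATATAAG and TATATATA, which an exact search does not count. Among all 32851 promoters of the table, 16.3% held AAACAC, 37.4% CCAAT, 6.14% both and 13.6% TATAAA. These matches describe letters in a window and show no binding.

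Hils1 had a saturated control spot, at 64905 in control and 2097 after busulphan (probe at mm9 chr11:94829603-94829662), and was at least 26.8-fold lower. Its other probe was measured on both arrays, at 24595 and 259, a log2 ratio of -6.36, so both probes place the gene far lower. Hist1h1t had signals of 328 and 34.4 (mm9 chr13:23788343-23788402), 8.24-fold lower, and H1fx had 674 and 84.3, 6.92-fold lower. All 3 genes were well above background on both arrays, with a far lower signal on the busulphan array.

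Hist1h1c stood at the other end, with signals of 600 in control and 2370 after busulphan (mm9 chr13:23832018-23832077), 4.56-fold higher. Hist1h1e had 47.9 and 126, 3.05-fold higher. The remaining somatic genes were dim: Hist1h1d had 10.1 and 19.3, a log2 ratio of 1.15. Hist1h1b was above background on the busulphan array only, with 6.18 and 20.2, and was at least 3.11-fold higher. H1foo had 60.6 and 108, a log2 ratio of 1.04, just past the line. With scaling to spike-in controls the ratios of Hist1h1b, Hist1h1d, Hist1h1e and H1foo fell below 2-fold without a change of sign, and Hist1h1c stayed above it at 1.30. Within 2-fold were Hist1h1a (now H1f1), at -0.31, and H1f0, the linker histone of resting and differentiated cells, with 3 probes between -0.64 and -0.07. The H1f0 probes at -0.64 and -0.61 overlap in position.

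No core histone gene of the clusters was called at least 2-fold higher and 10 of 15 (66.7%) were lower, with a median log2 ratio of -1.76. Over all genes 31.2% were higher and 29.6% lower. Hist1h2ac and Hist1h2be, dim on the control array, enter at their bounds, and with measured values in place of bounds 2 core genes were higher. In the other scalings and filters 9 or 10 were lower and 0 to 2 higher. Core histone genes of a type code for nearly the same protein and their mRNAs resemble each other, so a probe may read several copies, and these 15 values are not independent. The overlap is shown on the probes themselves, printed 5′ to 3′ with the stretch shared with the paired probe in capitals. The H4 probes pair in the order given: the first with the next, and the third with the last.
Hist1h4d probe, mm9 chr13:23673665-23673724, plus strand: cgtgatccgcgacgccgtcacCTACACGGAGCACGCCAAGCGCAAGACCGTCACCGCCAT
Hist2h4 probe, mm9 chr3:96066953-96067012, minus strand: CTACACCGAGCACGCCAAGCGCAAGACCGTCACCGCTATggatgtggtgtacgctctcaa
Hist1h4d probe, mm9 chr13:23673507-23673566, plus strand: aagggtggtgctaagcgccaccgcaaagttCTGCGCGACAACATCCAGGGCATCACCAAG
Hist1h4a probe, mm9 chr13:23852901-23852960, minus strand: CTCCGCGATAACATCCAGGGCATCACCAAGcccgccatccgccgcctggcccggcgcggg
The first pair matched at 37 of 39 shared bases and the other at 28 of 30. An H2B pair, Hist1h2bm with the testis-specific Hist1h2ba, overlapped by 40 bases and matched at 35.
Hist1h2bm probe, mm9 chr13:21814139-21814198, plus strand: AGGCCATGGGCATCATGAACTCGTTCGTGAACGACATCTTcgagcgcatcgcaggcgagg
Hist1h2ba probe, mm9 chr13:24025811-24025870, minus strand: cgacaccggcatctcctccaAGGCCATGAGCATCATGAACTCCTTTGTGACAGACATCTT
Without these overlapping probes, a comparison added after the data were seen, 10 core genes of the clusters were left, of which 5 were lower and none higher, with a median of -0.73. The median over all Hist genes, linker genes included, went from -1.37 over 21 genes to 0.026 over 16, of which 6 were lower. Without these probes the core genes alone thus kept a negative median, nearer to equality than -1.76. That median falls in a gap between Hist2h2be at -1.37 and Hist3h2ba at -0.09. Probes of Hist genes were compared only with each other, so those kept may still read other copies. All genes left out were core genes, so linker genes are a larger share of the 16 Hist genes behind the 0.026.

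Among H3 genes the array carried Hist1h3a (now H3c1), with signals of 628 in control and 26.8 after busulphan (mm9 chr13:23853756-23853815), 20.3-fold lower. All 4 H4 genes were lower. Hist1h4a had 4383 and 746, a log2 ratio of -2.35, and the others, Hist2h4, Hist4h4 and Hist1h4d, lay between -1.79 and -1.76. The second Hist1h4d probe gave -1.06, so its direction held and its size did not.

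Of 7 H2B genes 4 were lower and none higher. Hist1h2ba (now H2bc1), which codes for the testis H2B that replaces somatic H2B in germ cells, had signals of 5580 and 1198 (mm9 chr13:24025811-24025870), 4.03-fold lower. Hist1h2bk was at -2.07 and Hist1h2bm, with 11859 and 2443, also at -2.07, ratios like that of the testis gene. The Hist1h2bm probe overlaps that of Hist1h2ba, so their values may not be independent. Hist2h2be, an H2B gene of the smaller cluster on chromosome 3, was at -1.37. Hist3h2ba and Hist1h2bc were within 2-fold, at -0.09 and 0.14, and Hist1h2be was so dim on the control array that its ratio is a bound of 0.20.

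Of 3 H2A genes 1 was lower: Hist1h2af (now H2ac10), with signals of 39069 and 11871, a log2 ratio of -1.51, which was -0.55 with quantile normalization. Hist3h2a was at 0.91, just inside the line. Hist1h2ac, dim on the control array, had a lower bound of 0.96 and a measured ratio of 1.75, so its side of the line is not known.

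The 16 cluster genes on chromosome 13 span 2212 kb between the outer probes and include both directions. Hist1h1t, 8.24-fold lower, lies 43.6 kb from Hist1h1c, 4.56-fold higher. Hist1h3a, 20.3-fold lower, lies 0.796 kb from Hist1h4a, which was also lower, and 2.07 kb from Hist1h1a, which was within 2-fold. Neighbouring genes of the cluster thus had ratios of either sign.

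**Figure D2:**
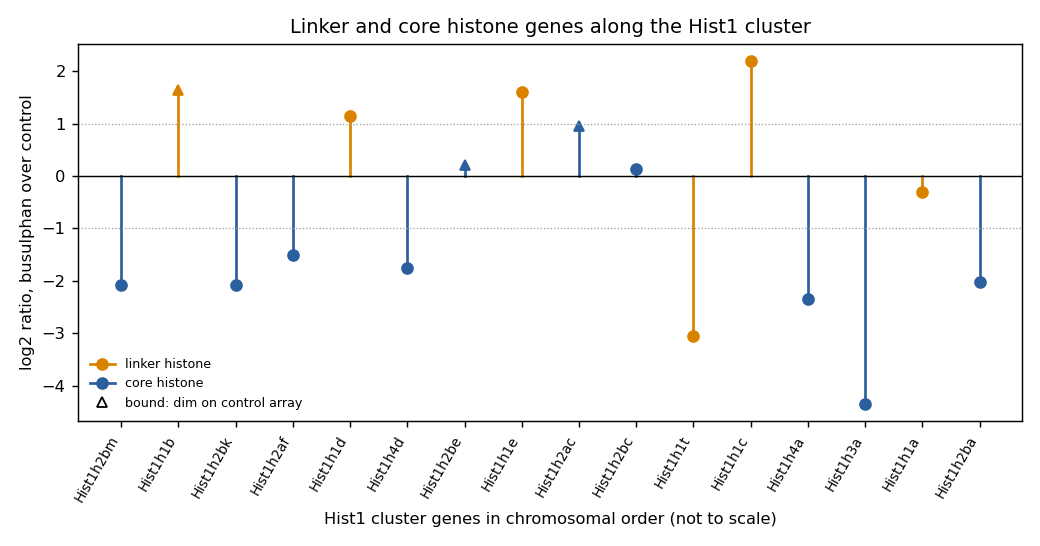
Log2 ratio of busulphan over control (y axis) for the 16 measured genes of the cluster on chromosome 13 in chromosomal order (x axis, order only), linker genes in orange, core genes in blue, triangles for bounds and dotted lines at 2-fold. Hist1h1t and Hist1h1c stand side by side at -3.04 and 2.19, and Hist1h3a has the lowest ratio at -4.34.

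Variant core histone genes, taken by the names H2af and H3f, were lower in 4 of 8 and higher in none, beside 29.6% lower and 31.2% higher over all genes. H2afb1 (H2al2a in the current table), a short H2A variant of spermatids, had a saturated control spot, with signals of 61882 in control and 871 after busulphan (mm9 chr2:17918124-17918183), and was at least 61.5-fold lower. H2afy2, which codes for macroH2A2, a variant of silent chromatin, had 251 and 28.1, 7.72-fold lower. H2afy3 was at -1.24. H2afz, which codes for H2A.Z of promoters, had 43269 and 17279, a log2 ratio of -1.12 that was -0.17 with quantile normalization.

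H2afy, the gene of macroH2A1, gave 0.36 with its brighter probe, at signals of 2138 and 2372, and 2.32 with the other, at 97.1 and 420. H2afx, whose product marks DNA breaks, was within 2-fold, at 6266 and 4465, a log2 ratio of -0.28. The 2 genes of H3.3 differed in sign. H3f3a had 32783 and 20266, a log2 ratio of -0.49, and its other probes gave -1.70 and -1.64. H3f3b had 33457 and 49143, a log2 ratio of 0.76, and its other probe 1.08; with scaling to spike-in controls its brighter probe was at -0.13. For both genes the call thus depended on the probe.

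**Figure D3:**
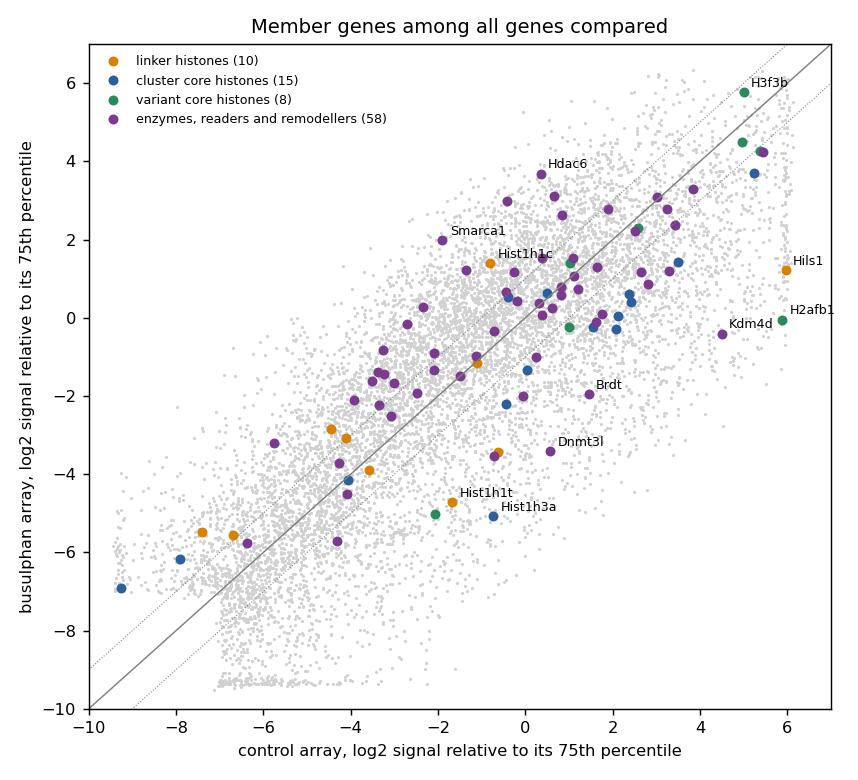
Measured log2 signal relative to the 75th percentile on the control (x axis) and busulphan array (y axis), grey for all genes compared and colour for the chromatin genes by class, with the line of equality and dotted lines at 2-fold. Hils1 and H2afb1, saturated on the control array, lie at its right edge and far below the line, whereas Smarca1 and Hdac6 lie above it.

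DNA methyltransferases held 1 lower, 1 higher and 2 genes within 2-fold. Dnmt3l, the inactive partner that guides new methylation in germ cells, had signals of 1552 and 84.7 (mm9 chr10:77526112-77526171), 15.9-fold lower. Dnmt3b, an enzyme of new methylation, had 245 and 480, a log2 ratio of 1.18, which was 0.29 with scaling to spike-in controls. Dnmt1, which copies methylation after replication, had 912 and 1225, a ratio of 0.63 on the log2 scale. Dnmt3a, the other enzyme of new methylation, gave 0.15, 1.29 and 1.80 with its 3 probes, the brightest being the lowest. The partner gene was thus lower while no enzyme gene was at least 2-fold lower.

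Lysine methyltransferases held 2 lower, 1 higher and 3 genes within 2-fold. Ezh2, the catalytic subunit of Polycomb repressive complexes in dividing cells, had signals of 3517 and 971, 3.13-fold lower. Ezh1, its counterpart in resting cells, had 129 and 285, 2.55-fold higher, and was below 2-fold with spike-in scaling, at 0.46. The pair thus had opposite directions. Suv39h2, a heterochromatin enzyme known as testis-enriched, gave -1.94 with its brightest probe, at signals of 1010 and 228, but -0.38 and 1.51 with its others, the last at 9.34 and 23.0. It was the 1 member whose probes gave opposite calls. Suv39h1, its X-linked relative, was at 0.75, and Suv420h1 and Suv420h2, which methylate histone H4, were at 0.56 and 0.00.

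Arginine methyltransferases held 3 higher, none lower and 2 within 2-fold, beside 31.2% higher and 29.6% lower over all genes. At 2-fold the 3 calls held under every other scaling, filter or source tried and with the median over probes, though 1 probe of Prmt6 was within 2-fold. Prmt2 had signals of 1640 and 7880 (mm9 chr10:75670021-75670080), 5.55-fold higher. Prmt6 had 108 and 508, 5.42-fold higher, and of its other probes 1 gave 2.25 and the other 0.13. Prmt3, whose enzyme modifies a ribosomal protein, was at 1.90, with 4 probes from 1.02 to 2.14. Prmt1 and Prmt5, the main enzymes of asymmetric and symmetric arginine methylation, were near equality, at -0.03 and -0.04, with signals of 2253 and 1912 for Prmt1 and 1844 and 1548 for Prmt5.

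Demethylases, 10 genes, held 4 higher, 5 lower and 1 within 2-fold, beside 31.2% higher and 29.6% lower over all genes. Kdm4d, a demethylase of a repressive histone H3 mark that is known as testis-enriched, had signals of 23654 and 683 (mm9 chr9:14267091-14267150), 30.0-fold lower. Its relatives Kdm4b and Kdm4c went the other way: Kdm4b had 160 and 814, 5.88-fold higher. Kdm4c had 205 and 1088, 6.14-fold higher. Kdm4a, the fourth of this subfamily, was at 0.05, so the 4 genes covered the full range of the family.

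Kdm3a, whose enzyme is needed in spermatids to switch on transition protein and protamine genes, had signals of 6514 and 2021, a log2 ratio of -1.48. Its other probes gave -1.73 and 0.60. Jmjd6, a jumonji protein that acts on arginine and lysine, had 7303 and 1642, 3.85-fold lower, and Kdm2b, a partner of Polycomb complexes, was lower with 3 probes between -1.90 and -1.72. Kdm1a, a demethylase of corepressor complexes, had 11210 and 4654, a log2 ratio of -1.06 that was -0.44 after loess. The X-linked Kdm5c and its Y-linked copy Kdm5d, which act on an active histone H3 mark, were both higher. Kdm5c had 410 and 2108 and a ratio of 2.57, with 2.63 from its other probe, and Kdm5d had 19.4 and 98.5 and a ratio of 2.56.

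Histone deacetylases held 3 higher, 3 lower and 5 within 2-fold. Hdac6, a cytoplasmic enzyme that acts on tubulin, had signals of 1330 and 11599 (mm9 chrX:7507434-7507493), 10.1-fold higher. Hdac10, known to act on polyamines, had 101 and 346, 3.96-fold higher. Hdac2, a nuclear enzyme of corepressor complexes, had 103 and 194, a ratio of 1.12 on the log2 scale, and 0.23 with spike-in scaling. Hdac11, the sole member of its class, had 639 and 77.7 (mm9 chr6:91124085-91124144), 7.11-fold lower. Hdac9 had 52.2 and 17.3, a log2 ratio of -1.38, and was at -0.34 with normexp background correction.

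Hdac1, the close relative of Hdac2, read 2084 on the busulphan array against 10187 on the control, 4.23-fold lower. Its probe is placed on chromosome 17 in the files, at mm9 chr17:78892656-78892726, whereas the gene lies on chromosome 4 in the RefSeq table, so what this probe reads is uncertain. Without it, in a comparison added after the data were seen, 30 members were lower. Hdac3, Hdac4, Hdac5, Hdac7 and Hdac8 lay between -0.31 and 0.61.

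Bromodomain readers bind acetylated histones. Brdt, the testis-specific reader that compacts acetylated chromatin in spermatids, had signals of 2861 and 234 (mm9 chr5:107806940-107806999), 10.6-fold lower. Brd2, a relative made in most tissues, had 45306 and 17197, a log2 ratio of -1.19, which was -0.23 with quantile normalization. Brd7, a subunit of a SWI/SNF complex, was at 0.08.

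Chromobox readers held 3 higher, 1 lower and 3 within 2-fold. Among the Polycomb members of the family, Cbx8 had 68.7 and 211, 3.55-fold higher, and Cbx6 768 and 1440, a log2 ratio of 1.11. Spike-in scaling took both below 2-fold, at 0.94 for Cbx8 and 0.22 for Cbx6. Cbx7 had 1240 and 452, 2.37-fold lower. Cbx2, another Polycomb member, gave 0.56 and -0.65 with its 2 probes. The heterochromatin members Cbx1 and Cbx3 were at -0.47 and 0.89.

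Remodellers held 4 higher, none lower and 7 within 2-fold, beside 31.2% higher and 29.6% lower over all genes. Smarca1, an ATPase of the ISWI class, had signals of 280 and 3576 (mm9 chrX:45162906-45162965), 14.7-fold higher. Its other probe gave 3.81 on the log2 scale, so both probes placed it far higher. Smarcad1 had 111 and 335, a log2 ratio of 1.81. Smarcc1 and Smarce1, core subunits of SWI/SNF complexes, were at 1.79 and 1.15 with their brightest probes but -0.90 and -0.83 with the others. With spike-in scaling Smarca1 stayed past 2-fold, at 2.99, and Smarcad1, Smarcc1 and Smarce1 did not.

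The SWI/SNF ATPases Smarca4 and Smarca2 and the core subunit Smarcb1 were within 2-fold, at -0.54, -0.34 and -0.47, with signals of 14885 and 8859 for Smarca4. Smarcc2, Smarcal1 and Smarcd3 were at -0.40, -0.35 and 0.39. Smarca5, the other ISWI ATPase, had 4 probes in 2 places. Those near mm9 chr8:83233028-83233087 gave -0.24 and -0.29, and those near chr8:83224641-83224700 gave 1.65 and 1.61. Probes of the same place overlap in position and read largely the same bases, so their likeness is no independent check. The ratios of the 2 places differed.

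Several probes were measured for 26 of the member genes. They gave the same call in 15 genes and opposite signs in 8, which were Brd7, Cbx2, Kdm3a, Smarca5, Smarcc1, Smarce1, Suv39h2 and Suv420h2. The median spread between the lowest and highest probe of a gene was 0.76 and the largest was 3.45, for Suv39h2. The median spread lay above the median software error of 0.20, but a spread covers several probes and the error 1 ratio, so the measures are unlike. The spread was as small as 0.05 for Kdm5c and 0.07 for Smarca1, and for genes with 1 probe it is unknown. Some probes of a gene overlap in position, as for Smarca5 and H1f0.

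**Figure D4:**
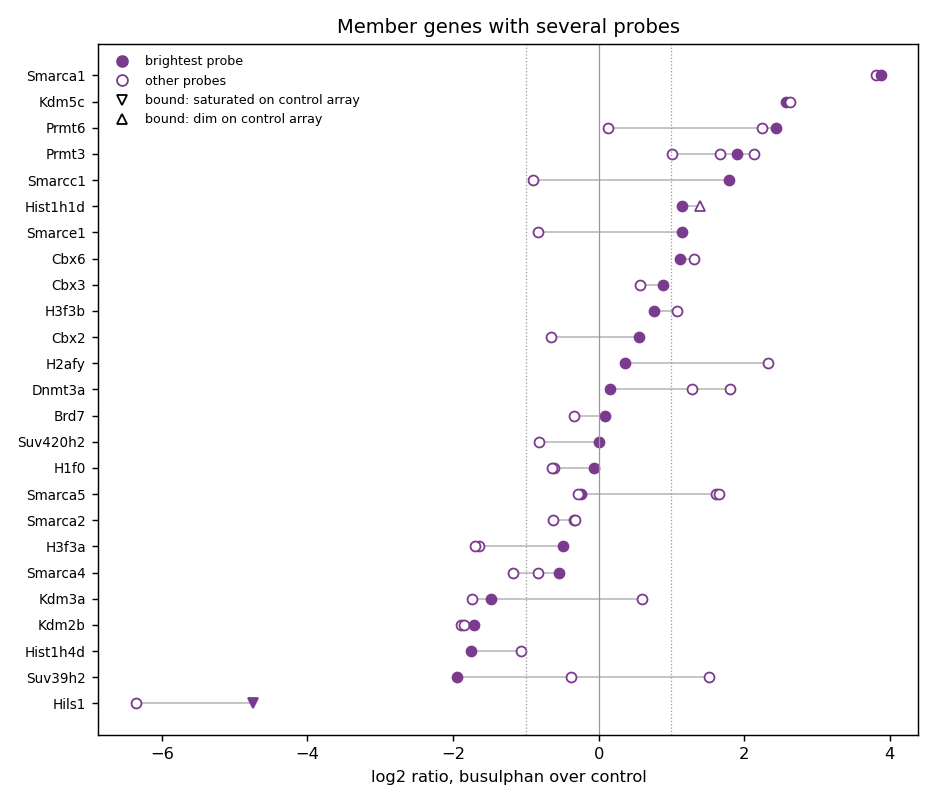
Log2 ratio of busulphan over control (x axis) for each probe of 25 of the 26 chromatin genes with several measured probes (y axis), filled for the brightest probe that stands for the gene, open for the others, with triangles for bounds and dotted lines at 2-fold. Suv39h2 spans from -1.94 to 1.51, whereas the probes of Smarca1 and Kdm5c nearly coincide.

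Position in the genome was not used to choose the genes. Of the 5 X-linked members, 3 (Smarca1, Hdac6 and Kdm5c) were higher and none was lower; the median was 2.57, and Suv39h1 and Hdac8 were within 2-fold at 0.75 and 0.61. All 289 X-linked genes compared held 59.5% higher and 12.1% lower, with a median of 1.54. The X-linked members' count was thus near that of the X chromosome as a whole. Autosomal members, 85 in all, comprised 21 higher and 31 lower genes and had a median of -0.24, beside 30.3% higher, 30.1% lower and a median of 0.02 for the 9022 autosomal genes.

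**Figure D5:**
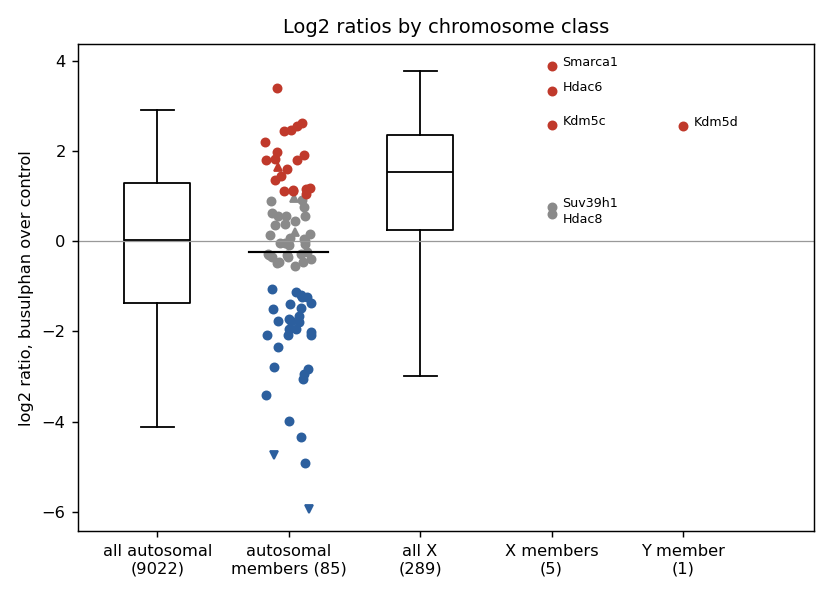
Log2 ratio of busulphan over control (y axis) for autosomal and X-linked genes (boxes, middle line the median, box the quartiles, whiskers the 5th and 95th percentiles) beside the chromatin genes of each class and the Y-linked Kdm5d (points, red for higher, blue for lower, grey for within 2-fold, triangles for bounds, bar the median of the autosomal members). The 5 X-linked chromatin genes lie between 0.61 and 3.88.

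Other genes of these pathways, outside the name rule, were taken from lists. Among 127 such genes there were 35 higher and 36 lower ones and the median was 0.24, again near the background. The single lists are small, at 4 to 23 genes compared. The counts of each stand beside 31.2% higher and 29.6% lower over all genes. All 4 sperm packing genes, Tnp1, Tnp2, Prm1 and Prm2, had saturated control spots and were lower; the bounds ran from -6.62 for Tnp2 and -3.02 for Tnp1 to -2.41 for Prm2 and -1.83 for Prm1. Of 19 histone chaperones 3 were higher and 4 lower. Chaf1a, the large subunit of the chaperone that loads histones behind replication forks, had signals of 15961 and 824, a log2 ratio of -4.07, and Npm2 was at -2.29. Anp32e, which removes H2A.Z, had 83.1 and 690 and a ratio of 3.26, and Anp32a was at 2.55.

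Acetyltransferases and coactivators, 12 genes, held 4 higher and 3 lower. Cdyl, a chromodomain protein abundant in spermatids, had a saturated control spot and was at least 39.3-fold lower, and Kat8, which acetylates histone H4, had 42493 and 4408, 8.34-fold lower. Kat6b and Clock were the highest, at 2.20 and 1.84. Histone methyltransferases held 7 higher and 1 lower of 15, from Dot1l at -1.36 and Ehmt2 at -0.97 to Ehmt1 at 2.21 and Kmt5a at 2.26. Sirtuins and partners of deacetylase complexes held 6 higher and 7 lower of 23, with Rcor3 at -2.43 and Mbd3 at -2.32 lowest and Sirt1 at 1.52 among the higher ones.

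Of 20 Polycomb and heterochromatin partners 3 were higher and 6 lower. Bmi1, a subunit of the complex that reads the Polycomb mark, had signals of 9808 and 293, 29.0-fold lower, and Phc1 was at -3.25, whereas Atrx and Phc3 were at 1.81 and 2.34. Of 15 other remodelling genes 4 were higher and 6 lower, from Ruvbl2 at -3.08 and Actl6a at -2.33 to Dpf1 at 1.46 and Chd6 at 1.73. Readers and erasers of DNA methylation had 6 higher and 3 lower of 9: Uhrf1, the partner of Dnmt1 at replication forks, was at -2.01 and Mbd2 at -1.85, and Zbtb33 and Apobec1 were at 2.06 and 2.91. The list of other demethylases and bromodomain proteins held 2 higher and 2 lower of 10, with Hr at -1.93, Trim33 at -1.21, Riox2 at 1.33 and Riox1 at 2.22; it includes Rbp2, an old name of a demethylase gene that on this array belongs to a retinol-binding protein, within 2-fold at 0.42.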

How the data were processed

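RNA of 1 control and 1 busulphan preparation was measured on 1 Cy3 array each. The deposited intensity values are, per the file headers, processed signals from Agilent Feature Extraction version 11.5.1.1, a program that subtracts background and flags dim, saturated and outlying spots. The authors' deposited log2 table equals log2 of these signals minus 10.03 (control) or 9.82 (busulphan), with medians of -2.94 and -2.77, so its scale and direction are known.

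Each array held 15208 non-control probes, of which 80.9% and 79.3% were well above background and 106 and 18 saturated. The log2 signal minus the 75th percentile of the array (signals of 1046 and 905) was compared. Probes not well above background on either array and 4 outlying ones were left out, and the probe with the highest mean stood for its gene. A spot dim or saturated on 1 array gives a bound, which applied to 5 members and stands at its bound in counts and medians. Both arrays share 1 scan time. The number of arrays limits the precision.

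Members and lists were chosen with earlier results of these data known. The rule names all members compared and of each list the 2 highest and lowest genes, and a few genes it takes are not reported here; housekeeping genes, 7 higher and 5 lower of 21, served for scaling. Symbols of 13330 probes came from RefSeq (GRCm38.p6) through accessions, and 77 of the 91 members had a promoter entry. Coordinates are those of the files, mm9 (NCBI37), and exons and untranslated regions were not assigned. Tools were Python 3.11.15, pandas 2.3.3, statsmodels 0.14.6, R 4.3.3 and limma 3.58.1 (normexp, offset 50). Alternatives changed the scaling, background correction, filters, bounds, probe choice, source of values and size of the call.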

Additional observations from a re-analysis of the deposited data

How the results depend on the processing

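With the call kept at 2-fold, no called member changed sign under any alternative scaling, correction, filter, bound or source, or with the median over probes. Of the 56 calls 37 held in all of these alternatives that gave a value and 19 were lost in some. H2afb1, whose only probe was saturated on the control array, is among the 37 and had no value without saturated probes. Scaling to spike-in controls moved the median of all genes to -0.82 and calls to 16.0% higher and 46.6% lower over all genes. It left 12 members higher and 43 lower and gave medians of -0.93 over the members, -2.26 over the cluster histones and -0.62 over the enzymes and readers. Without scaling these medians were -0.25, -1.58 and 0.063. With quantile normalization the median was 0.21 over the members and -0.55 over the cluster histones. The cluster histone median was -0.76 after loess, -0.84 without the filter on dim probes, -1.64 with probes above background on both arrays and, in an alternative added after the data were seen, 0.026 without overlapping probes. In that alternative the core genes of the clusters alone had a median of -0.73. At 4-fold 10 members were higher and 15 lower, and 41 probes were higher where probes were counted. The shares over all genes at 4-fold and over all probes were not computed, so these counts have no background beside them. Apart from the shared scaling shift and the smaller sets of genes or probes, the cause of these moves was not tested. No paired analysis was possible because each group is 1 array and the labels carry no replicate numbers. Saturated control spots leave the size of the lowest ratios unknown, and dim control spots that of Hist1h1b, Hist1h2be and Hist1h2ac.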

Other observations

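The difference between X-linked and autosomal genes can be set beside that between single autosomes. Medians of the 19 autosomes lay between -0.26, for chromosome 7, and 0.51, for chromosome 18, all below the 1.54 of the X chromosome. The X median exceeded the autosomal median by 1.52, and by 0.78 to 1.69 over the alternative settings, the lowest with normexp background correction. Of 9 Y-linked genes compared 1 was higher, the demethylase gene Kdm5d, and 4 were lower, with a median of -0.71.

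Macrophage markers summed to 66110 in control and 9718 after busulphan although 11 of 16 were higher, because Aif1, with a saturated control spot, went from 62716 to 1230.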
